A study of Mus musculus with 8 samples.

Results

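The genes described here encode the machinery that copies DNA. They were taken from a list of 35 gene symbols, matched by Ensembl identifier to the count tables, and make up 35 of the 54446 genes counted in each library. The list holds 5 genes of origin recognition and loading, the 6 of the MCM2-7 helicase ring, 6 of helicase activation, 6 of primase and the polymerases, 6 of the sliding clamp and its loader, 4 of single-strand binding and Okazaki fragment maturation, and 2 subunits of ribonucleotide reductase. All 35 passed the filter on low counts. Their counts ran from 232 (Gins1 in Mettl3 cKO replicate 2) to 9843 (Lig1 in Mettl14 control replicate 2), and their average log2 CPM from 4.24 to 8.73, where CPM is a gene's count over the scaled library size.

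The cells were C57BL/6 mouse embryonic stem cells, whose nuclear RNA was sequenced. They were grown in serum with LIF and inhibitors of GSK3 and MEK. In Mettl14 cKO and Mettl3 cKO the named gene had been deleted conditionally. Mettl14 control and Mettl3 control are the control cells of each line, and every group has 2 samples. METTL3 and METTL14 form the complex that writes N6-methyladenosine on RNA, and the design asks how nuclear RNA changes when either gene is lost. The deleted exons, the recombinase, the time after deletion and the number of clones were not stated in the labels. Nothing says that the 2 samples of a group are separate cultures, so p-values measure only how these samples vary, and that variation may be technical. A bulk library also cannot tell fewer cells of a type from less RNA per cell.

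Total counts ran from 17235889 to 20086128 per library. Mettl14 RNA was lower in Mettl14 cKO than in its control, with a log2 fold change of -0.96 ± 0.07 (SE; adjusted p = 1.23e-26 by Benjamini-Hochberg in edgeR's quasi-likelihood test), and Mettl3 RNA in Mettl3 cKO with one of -0.95 ± 0.08 (adjusted p = 1.21e-21). Mettl14 RNA was also higher in Mettl14 control than in Mettl3 control, by 0.99 ± 0.07 (adjusted p = 1.55e-28). The labelled cell type was checked against 12 embryonic stem cell markers and 21 fibroblast markers, and all had counts in at least 1 library of each group; Lum, a fibroblast marker, was the lowest at 0 to 12 counts. The summed stem cell markers were 4260.4 and 4229.8 CPM in the Mettl14 control, 2858.3 and 2854.7 in Mettl14 cKO, 1638.9 and 1618.0 in Mettl3 control, and 1567.4 and 1535.7 in Mettl3 cKO. The summed fibroblast markers ran the other way, at 3677.9 and 3679.3, 5649.3 and 5659.9, 14846 and 14434, and 16630 and 16457 CPM. The mitochondrial share of counts was 2.99% and 3.01% in Mettl14 control, and 1.06% to 1.43% in the other 6 libraries.

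DNA replication starts at origins. The origin recognition complex binds there in G1, and CDC6 and CDT1 load the MCM2-7 ring around DNA, a step called licensing. In S phase CDC45 and the GINS complex join the ring to form the active helicase, primase and polymerase alpha start each strand, and polymerases delta and epsilon extend them with the clamp PCNA. Embryonic stem cells are known for a short G1 and for spending much of their cycle in S phase. Many genes of this machinery are transcribed in G1 and S phase under E2F transcription factors.

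The letters of those sites were looked for in the members' promoters. The members were not chosen by promoter letters. Since many genes of this machinery were already known to be under E2F factors, a high share could be foreseen and is no independent evidence. RefSeq promoters of build GRCm38.p6, from 250 bases before to 50 after the start site, were found for 28 of the 35 members (33 promoters). Gins1, Gins2, Gins4, Mcm4, Pole, Prim2 and Rfc2 had no entry. The motif was any of TTTCCCGC, TTTCGCGC, TTTGCCGC and TTTGGCGC on either strand, and matches may overlap each other. It was present in 12 of the 33 member promoters (36.4%), against 2.26% of all 32851 promoters of that length. In the promoters of other replisome and licensing genes it was present in 30.3%, and in those of mitosis genes in 3.57% of 28. Lig1 and Gins3 carry the letters but are left out of the windows below, as are further windows of Mcm3, Mcm6 and Mcm7. The windows below give the letters in the other members that carry them, with a single window for each gene. Each runs 5′ to 3′ in the direction of the gene, and capitals mark the match.

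Cdt1 (chr8:122568036-122568064, plus strand): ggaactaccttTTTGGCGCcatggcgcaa
Cdc6 (chr11:98908002-98908031, plus strand): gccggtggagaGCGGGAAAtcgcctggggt
Orc1 (chr4:108579416-108579445, plus strand): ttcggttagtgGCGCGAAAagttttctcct
Mcm3 (chr1:20820275-20820304, minus strand): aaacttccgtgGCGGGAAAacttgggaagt
Mcm5 (chr8:75109347-75109376, plus strand): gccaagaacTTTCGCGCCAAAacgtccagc
Mcm6 (chr1:128359795-128359824, minus strand): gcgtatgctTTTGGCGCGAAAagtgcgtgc
Mcm7 (chr5:138171849-138171878, minus strand): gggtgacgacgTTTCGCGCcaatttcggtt
Pola1 (chrX:93632275-93632304, minus strand): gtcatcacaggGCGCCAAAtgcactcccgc
Pold1 (chr7:44548766-44548787, minus strand): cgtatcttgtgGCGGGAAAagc
Rfc3 (chr5:151651195-151651224, minus strand): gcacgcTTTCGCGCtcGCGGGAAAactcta

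In the Mcm5 and Mcm6 windows matches on both strands overlap, so that the capitals hold 2 of them in 12 bases. In the Rfc3 window 2 matches lie side by side, separated by 2 bases. The Mcm6 promoter is given at length, because Mcm6 was the ring subunit with the largest change in Mettl14 cKO. Its capitals mark 3 matches to the E2F letters and 2 to CCAAT (here read on the other strand as ATTGG), the letters bound by NF-Y. It is the 250 bases before the start site.

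Mcm6 (chr1:128359706-128359955, minus strand): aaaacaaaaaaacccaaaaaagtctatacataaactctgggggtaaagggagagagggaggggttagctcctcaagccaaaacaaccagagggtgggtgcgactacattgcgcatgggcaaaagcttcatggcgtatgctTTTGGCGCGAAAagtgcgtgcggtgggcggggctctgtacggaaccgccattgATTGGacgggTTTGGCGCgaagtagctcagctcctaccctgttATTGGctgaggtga

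CCAAT, on either strand, was present in 66.7% of the member promoters and 37.4% of all promoters. In the promoters of other replisome and licensing genes it was present in 33.3%, and in those of mitosis genes in 82.1%. It is thus not particular to replication genes. TTTGAA, the letters of the CHR element of mitotic genes, was present in 12.1% of member promoters, 17.9% of all promoters and 78.6% of those of the mitosis genes. A match is a description of the letters and does not show binding. The 12 members with E2F letters had a median of -0.31 for the log2 fold change in Mettl14 cKO and the 16 members without them one of -0.28, a gap for which no test was run.

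Within Mettl14 control, levels per exon length spanned a wide range. Mcm3, a ring subunit, was highest at 155.9 CPM per kb of merged exons, followed by Lig1, the ligase that seals Okazaki fragments, at 145.3, Mcm5 at 104.2, Mcm4 at 97.9 and Mcm7 at 92.4. Rfc3, a clamp loader subunit, was lowest at 6.27 CPM per kb, and Rfc2 stood at 8.09 and Prim2 at 10.2. Merged exons join all annotated transcripts of a gene, 6303 bases for Rfc2 and 1533 for Rfc4. Ranks between genes therefore also depend on the annotation. Mcm3 ranked first in both groups of the Mettl14 line and Lig1 first in both groups of the Mettl3 line. Cdt1, the licensing factor, ranked 19 in Mettl14 control and 28 in Mettl14 cKO, and in both groups of the Mettl3 line 29. Pold1, the catalytic subunit of polymerase delta, moved from rank 29 in Mettl14 control to 23 in Mettl14 cKO and 16 in both groups of the Mettl3 line.

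**Figure D1:**
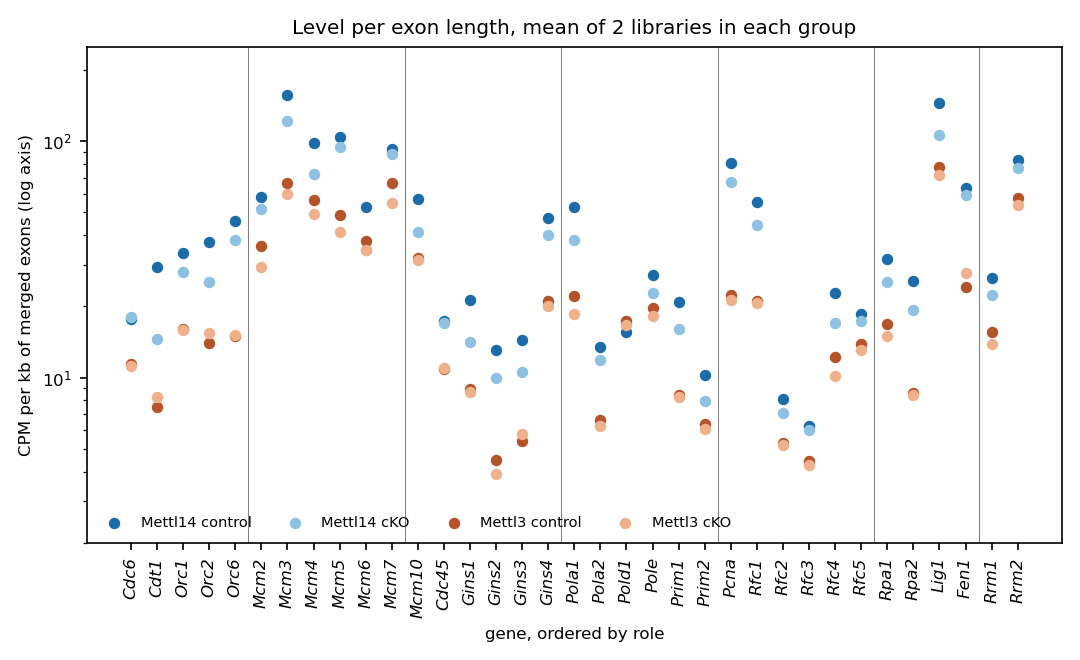
Level of each replication gene in CPM per kb of merged exons (log axis), as the mean of 2 libraries in each of the 4 groups, with genes in order of their role. Under TMM scaling, used here, Mettl14 control is the highest group for all but Cdc6 and Pold1. The spread between genes, from 6.27 for Rfc3 to 155.9 for Mcm3 in Mettl14 control, is wider than that between groups. The spread between genes also depends on the annotated exon length.

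Nuclear RNA of most of the machinery was lower in Mettl14 cKO. Under TMM scaling, 29 of the 35 members fell in Mettl14 cKO and 1, Pold1, rose. Cdc45, Cdc6, Rfc3, Rfc5 and Fen1 did not pass the test. The share of all tested genes called down was 22.4%, and 45.5% among the 7938 abundant ones, which had a log2 CPM of 4 or more on average, as all members did. Called up were 18.0% and 25.9%. The members' median log2 fold change was -0.28, against 0.03 over all 21782 tested genes and -0.10 over the abundant ones. The summed level of the members was 7008.1 and 7031.2 CPM in Mettl14 control against 5667.8 and 5705.8 in Mettl14 cKO, 81.0% of control. That sum rests on TMM scaling. As shares of all counts, without TMM factors, the gap was narrower. The members made up 0.584% and 0.59% in Mettl14 control against 0.545% and 0.550% in Mettl14 cKO.

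How many members fell depended on the scaling. When libraries were scaled by their total counts alone, an alternative chosen after seeing the data, 17 members fell and 7 rose. That scaling moved the median of all genes by 0.20 on the log2 scale and the share of rises among all calls from 44.6% to 71.8%. The members' median stood 0.31 below that of all genes under both scalings, and 0.18 below that of abundant genes. A scaling adds the same amount to every gene, so these gaps could not change and say nothing about stability. Upper-quartile scaling gave 26 falls and 1 rise. The calls of 17 of the 30 members held in every one of 15 alternatives: Cdt1, Orc2, Mcm3, Mcm4, Mcm6, Mcm10, Gins1, Gins2, Gins3, Pola1, Prim1, Prim2, Rfc1, Rfc4, Rpa1, Rpa2 and Lig1.

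**Figure D2:**
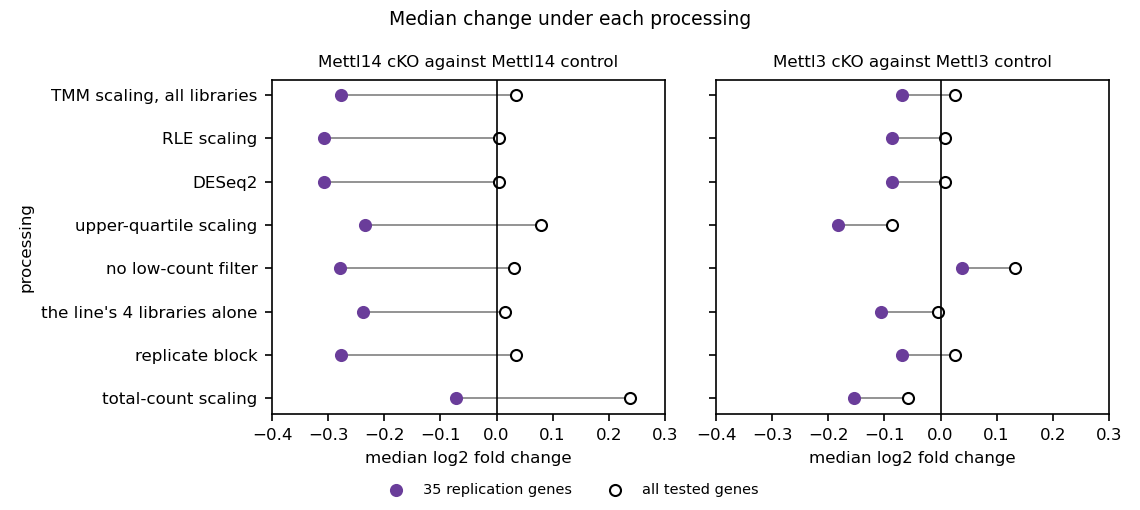
Median log2 fold change of the 35 replication genes (filled) and of all tested genes (open) in each knockout, under TMM scaling and 7 other ways of processing. The filled point lies below the open one by 0.31 for Mettl14 cKO, except with the 4 libraries of the line alone (-0.25). For Mettl3 cKO it lies below by about 0.10. A scaling shifts both points alike, so it cannot change their gap. The members' median is above 0 for Mettl3 cKO without a low-count filter.

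Among the genes of origin recognition and loading, 4 of 5 fell in Mettl14 cKO, where 45.5% of abundant genes were called down. Whether any role, with so few genes, exceeds such a share was not tested. The 4 kept their sign under every other scaling tried. With total-count scaling Orc1 (-0.06) and Orc6 (-0.07) no longer passed the test. Cdt1, which brings the MCM ring to the origin, had 87.5 and 97.0 CPM in the Mettl14 control, 46.1 and 45.1 in Mettl14 cKO, 24.6 and 22.6 in Mettl3 control, and 25.1 and 26.8 in Mettl3 cKO. The Mettl14 cKO libraries lay far below their controls, and all 4 libraries of the Mettl3 line lay lower still. Cdt1 fell by 1.02 ± 0.06 in Mettl14 cKO (SE, n = 2 against 2, edgeR's quasi-likelihood test, adjusted p = 1.03e-34), the largest fall among the members, and with Mettl3 the log2 fold change was 0.14 ± 0.08 (adjusted p = 0.208). Geminin, encoded by Gmnn, binds CDT1 and keeps it from licensing origins again after S phase has begun. It had 79.0 and 81.0 CPM in Mettl14 control against 39.8 and 39.0 in Mettl14 cKO, a fall of 1.02 ± 0.06 (adjusted p = 1.62e-32), the same as Cdt1 to 2 decimals. Gmnn had 23.6 and 19.8 CPM in Mettl3 control and 20.4 and 22.6 in Mettl3 cKO, which overlap.

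Orc2, a core subunit of the origin recognition complex, had 146.5 and 142.1 CPM in Mettl14 control against 96.2 and 98.5 in Mettl14 cKO. In the Mettl3 line it had 56.0 and 52.0 CPM in the control and 57.1 and 61.4 in the knockout. It fell by 0.57 ± 0.04 with Mettl14 (SE, edgeR's test, adjusted p = 1.18e-24). With Mettl3 it rose by 0.13 ± 0.05, at an adjusted p of 0.0488 that was lost without Mettl3 control replicate 2 (0.195), without Mettl3 cKO replicate 2 (0.17) and with DESeq2 (0.401). Nif3l1 lies opposite to 29.8% of the exon bases of Orc2, and the counting's strand setting is unknown here. Orc1, the large ATPase subunit, fell by 0.26 ± 0.04 in Mettl14 cKO, and Orc6, the smallest subunit, by 0.28 ± 0.05. Cdc6, the ATPase that works with CDT1, had 91.6 and 93.7 CPM in Mettl14 control against 94.2 and 95.0 in Mettl14 cKO, a log2 fold change of 0.03 (adjusted p = 0.648). Orc1, Orc6 and Cdc6 did not pass the test in Mettl3 cKO, with log2 fold changes of -0.01, 0.02 and -0.04.

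The 6 MCM2-7 proteins form the ring that unwinds DNA. All 6 of their genes fell in each knockout under TMM scaling (45.5% and 7.94% of abundant genes). With total-count scaling edgeR called Mcm5 (0.065, adjusted p = 0.0424) and Mcm7 (0.135, adjusted p = 9.38e-06) up in Mettl14 cKO. Mcm2 had a log2 fold change of 0.03 there and did not pass the test (adjusted p = 0.461). Mcm6 had 241.7 and 248.1 CPM in the Mettl14 control, 162.1 and 159.7 in Mettl14 cKO, 177.9 and 175.0 in Mettl3 control, and 163.2 and 159.7 in Mettl3 cKO. It is the ring subunit whose Mettl14 cKO libraries lay below Mettl3 control and level with Mettl3 cKO. Mcm7 showed the reverse balance of the knockouts. Its values were 400.8 and 417.0 CPM in the Mettl14 control, 388.3 and 391.0 in Mettl14 cKO, 294.4 and 294.9 in Mettl3 control, and 244.6 and 237.6 in Mettl3 cKO. The groups of each line did not overlap, and the gap in the Mettl14 line was the narrower.

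In Mettl14 cKO the ring genes fell by 0.61 ± 0.03 for Mcm6, 0.43 ± 0.03 for Mcm4, 0.36 ± 0.03 for Mcm3, 0.18 ± 0.03 for Mcm2, 0.14 ± 0.03 for Mcm5 and 0.07 ± 0.03 for Mcm7 (SE). The last had an adjusted p of 0.0369 in edgeR's test, and its call was lost without Mettl14 control replicate 2 (0.499), Mettl14 cKO replicate 1 (0.237) or Mettl14 cKO replicate 2 (0.0569), and with upper-quartile scaling (0.507). In Mettl3 cKO the order was nearly turned round: Mcm2 and Mcm7 both fell by 0.29 ± 0.03, Mcm5 by 0.23 ± 0.03, Mcm4 by 0.19 ± 0.03, Mcm3 by 0.14 ± 0.03 and Mcm6 by 0.13 ± 0.03. The summed ring level was 2406.0 and 2416.5 CPM in the Mettl14 control, 2001.1 and 2003.5 in Mettl14 cKO, 1380.8 and 1349.7 in Mettl3 control, and 1177.4 and 1169.9 in Mettl3 cKO. These sums rest on TMM scaling and were not computed under another scaling. Mcm7 also hosts Mir25, Mir93 and Mir106b and shares 16.5% of its 50-base stretches with the copy Gm5487, which had 0.33 CPM.

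**Figure D3:**
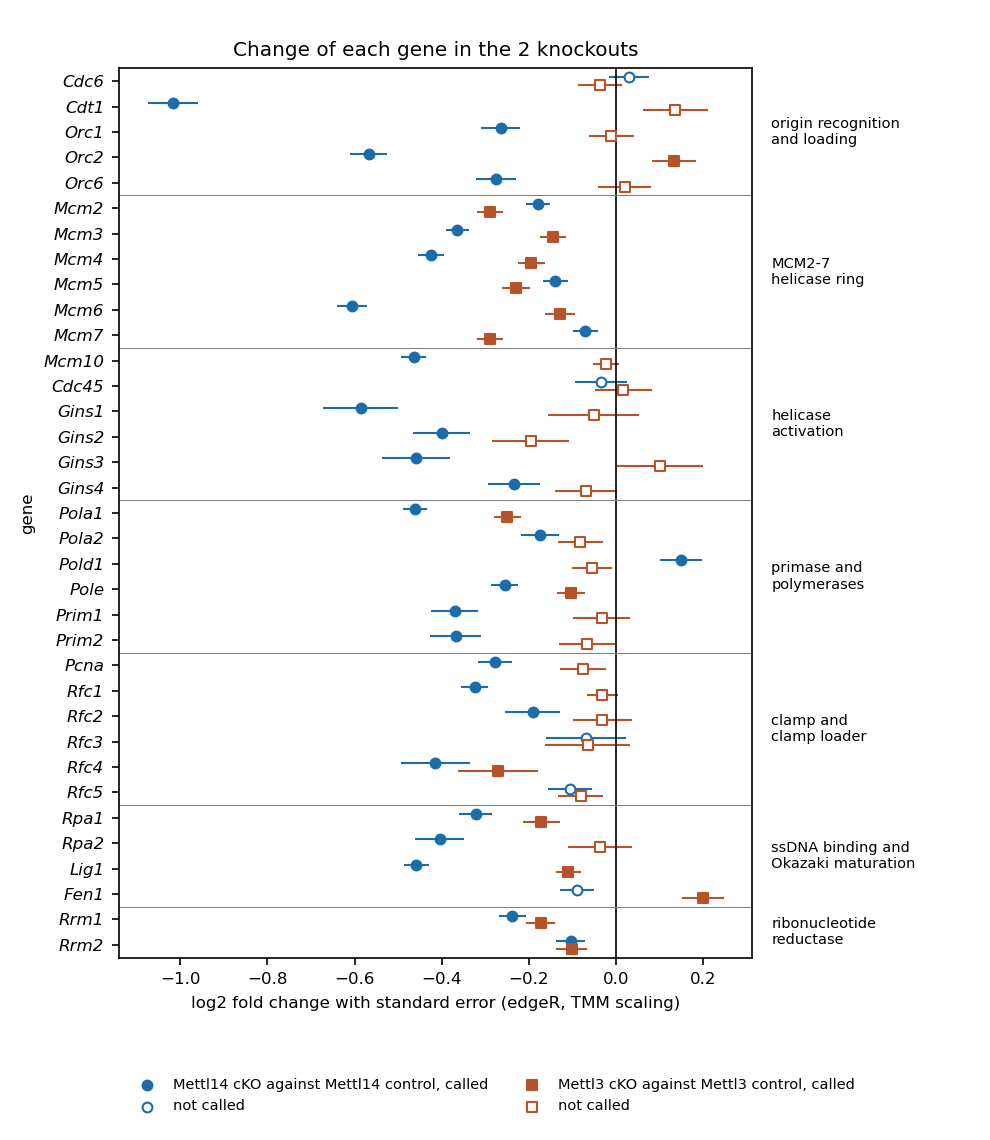
Log2 fold change with its standard error of each replication gene in Mettl14 cKO (circles) and Mettl3 cKO (squares) against its own control under TMM scaling, with filled symbols where edgeR's adjusted p was under 0.05. Circles lie left of 0 for 33 of 35 genes and reach -1.02 at Cdt1, and squares are filled for all 6 MCM genes and open for the 6 helicase activation genes. With total-count scaling 23 circles lie left of 0.

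Of the 6 genes of helicase activation, 5 fell in Mettl14 cKO (45.5% of abundant genes). In Mettl3 cKO 0 passed edgeR's test, where 7.94% of abundant genes were called down. There DESeq2 also called 0, and 1, Gins2, fell at an unadjusted p under 0.05. With upper-quartile scaling edgeR called 2 of them down there, Mcm10 (-0.135, adjusted p = 0.000221) and Gins2 (-0.31, adjusted p = 0.00646), and with total-count scaling the same 2 (adjusted p = 0.00344 and 0.0153). MCM10 acts when the loaded ring is switched on. Its gene had 440.0 and 431.5 CPM in the Mettl14 control, 314.2 and 317.4 in Mettl14 cKO, 247.5 and 242.8 in Mettl3 control, and 245.7 and 236.9 in Mettl3 cKO. It fell by 0.46 ± 0.03 in Mettl14 cKO (SE, edgeR's test, adjusted p = 1.15e-31), with -0.02 (adjusted p = 0.661) for Mettl3. GINS is a ring of 4 proteins that travels with the helicase, and all 4 of its genes fell in Mettl14 cKO: Gins1 by 0.59 ± 0.09, Gins3 by 0.46 ± 0.08, Gins2 by 0.40 ± 0.07 and Gins4 by 0.23 ± 0.06. With total-count scaling their log2 fold changes stayed below 0, and that of Gins4 (-0.03, adjusted p = 0.72) did not pass the test. Gse1 lies opposite to 67.3% of the exon bases of Gins2, so reads there cannot be assigned without the strand setting. Cdc45, their partner in the active helicase, had 58.5 and 63.5 CPM in Mettl14 control against 60.9 and 58.3 in Mettl14 cKO, which overlap.

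For primase and the polymerases, 5 of 6 genes fell in Mettl14 cKO (45.5% of abundant genes) and Pold1 rose (25.9%). With total-count scaling Pola2 had a positive log2 fold change there (0.03). Pola1, the catalytic subunit of polymerase alpha, had 468.9 and 461.5 CPM in the Mettl14 control, 334.3 and 341.4 in Mettl14 cKO, 198.9 and 190.6 in Mettl3 control, and 164.3 and 163.5 in Mettl3 cKO. No groups overlapped, and each knockout lay below its control. Pola1 fell by 0.46 ± 0.03 with Mettl14 (SE, edgeR's test, adjusted p = 1.75e-31) and by 0.25 ± 0.03 with Mettl3 (adjusted p = 1.77e-10). The primase genes Prim1 and Prim2 each fell by 0.37 in Mettl14 cKO, Pole, the catalytic subunit of polymerase epsilon, by 0.26 ± 0.03, and Pola2, the second subunit of polymerase alpha, by 0.18 ± 0.04. Total-count scaling ended the call of Pole (-0.05, adjusted p = 0.178).

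Pold1 did not follow the other polymerase genes. It had 75.8 and 76.2 CPM in the Mettl14 control, 79.9 and 88.5 in Mettl14 cKO, 84.8 and 83.3 in Mettl3 control, and 79.7 and 82.0 in Mettl3 cKO. The Mettl14 control libraries were thus the lowest of the 8. Its rise in Mettl14 cKO was 0.15 ± 0.05 (SE, edgeR's test, adjusted p = 0.00794). DESeq2 (0.199) did not make the call, and it was lost when Mettl14 control replicate 1 (0.0875) or Mettl14 cKO replicate 2 (0.529) was left out.

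In the clamp and its loader, 4 of 6 genes fell in Mettl14 cKO (45.5% of abundant genes), although with total-count scaling Rfc2 had a log2 fold change of 0.01. Pcna encodes the ring that tethers polymerases to DNA. It had 194.2 and 195.0 CPM in the Mettl14 control, 157.2 and 163.8 in Mettl14 cKO, 58.1 and 49.4 in Mettl3 control, and 51.2 and 50.9 in Mettl3 cKO. The step between the lines was far wider than the step between Mettl14 cKO and its control, and the Mettl3 groups overlapped. Pcna fell by 0.28 ± 0.04 in Mettl14 cKO (SE, edgeR's test, adjusted p = 7.87e-10), a call that total-count scaling ended (-0.07, adjusted p = 0.113). The pseudogene Pcna-ps2 shares 19.1% of its 50-base stretches and had 0.67 CPM.

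RFC proteins load PCNA onto DNA. Rfc1, the large subunit, fell by 0.32 ± 0.03 in Mettl14 cKO, Rfc4 by 0.42 ± 0.08 and Rfc2 by 0.19 ± 0.06 (SE, edgeR's test). Leaving out replicate 1 ended the call of Rfc2 (adjusted p = 0.00894), that of Mettl14 control (0.125) as well as that of Mettl14 cKO (0.102). Rfc3 had 22.1 and 23.2 CPM in Mettl14 control against 22.9 and 20.2 in Mettl14 cKO. Rfc5 had 81.4 and 91.9 CPM against 80.1 and 81.1, and passed the test only without Mettl14 control replicate 1 (-0.20, adjusted p = 0.00319) and with RLE scaling (-0.13, adjusted p = 0.0229). Eif4a2, with 849.4 CPM on average, lies opposite to 12.7% of the exon bases of Rfc4, which had 23.1.

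Single-strand binding and Okazaki maturation genes fell in 3 of 4 cases in Mettl14 cKO (45.5% of abundant genes). RPA coats unwound DNA, and Rpa1 fell by 0.32 ± 0.04 and Rpa2 by 0.40 ± 0.06 there (SE, edgeR's test). Lig1 had 622.8 and 617.9 CPM in the Mettl14 control, 447.1 and 456.0 in Mettl14 cKO, 342.6 and 320.1 in Mettl3 control, and 318.6 and 295.8 in Mettl3 cKO. It was the most abundant member by count in Mettl14 control and fell by 0.46 ± 0.03 with Mettl14 (adjusted p = 1.24e-26).

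Fen1, the nuclease that trims Okazaki fragments before LIG1 seals them, moved differently from Lig1. It had 153.7 and 152.3 CPM in the Mettl14 control, 145.0 and 142.7 in Mettl14 cKO, 59.0 and 57.9 in Mettl3 control, and 68.8 and 65.4 in Mettl3 cKO. With Mettl14 the log2 fold change was -0.09 ± 0.04 (adjusted p = 0.0568), which became 0.12 (0.00924) with total-count scaling and -0.12 (0.01) with RLE scaling, calls in opposite directions. With Mettl3 it rose by 0.20 ± 0.05 (SE, edgeR's test, adjusted p = 0.00068), a call that upper-quartile (0.215) and total-count scaling (0.0804) ended. An antisense gene, Gm10143, covers 78.8% of its exon bases and had 0.83 CPM.

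Ribonucleotide reductase makes the deoxyribonucleotides that the polymerases use. Rrm1, the large subunit, had 285.0 and 293.2 CPM in the Mettl14 control, 247.2 and 243.2 in Mettl14 cKO, 173.5 and 169.9 in Mettl3 control, and 154.8 and 149.9 in Mettl3 cKO. It fell by 0.24 ± 0.03 with Mettl14 and by 0.17 ± 0.03 with Mettl3 (SE, edgeR's test, adjusted p = 4.86e-11 and 2.33e-05). The fall with Mettl14 did not pass with total-count scaling (-0.03, adjusted p = 0.40). Under total-count scaling Rrm2, the small subunit made in S phase, was called up with Mettl14 (0.10, adjusted p = 0.00633 in edgeR's test). With TMM scaling it fell by 0.10 in each knockout. Its call for Mettl14 (adjusted p = 0.00603) was lost without Mettl14 cKO replicate 1 (0.0749).

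**Figure D4:**
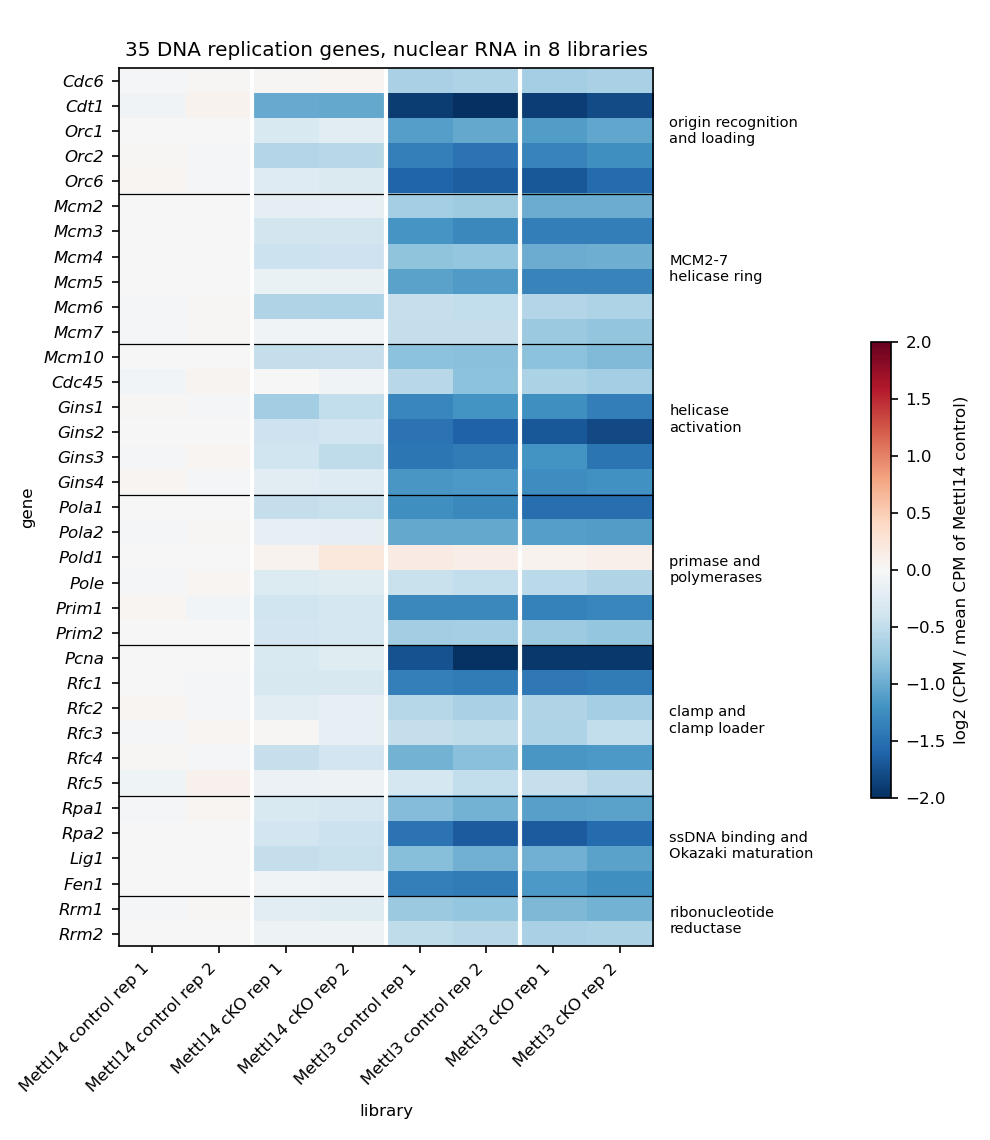
Log2 ratio of each gene's CPM (TMM scaling) to its mean in Mettl14 control, for the 35 replication genes (rows, by role) in the 8 libraries (columns). Most rows darken from Mettl14 control through Mettl14 cKO to the 4 libraries of the Mettl3 line, Cdt1 and Pcna reach the lowest values, and Pold1 is the row above 0.

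In Mettl3 cKO 13 of 35 members fell under TMM scaling, all 6 MCM genes among them, and 2, Orc2 and Fen1, rose. The share of all tested genes called down was 5.78%, and 7.94% of abundant ones; called up were 15.1% and 33.0%. The 13 were the 6 MCM genes, Pola1, Pole, Rfc4, Rpa1, Lig1, Rrm1 and Rrm2. All of them also fell in Mettl14 cKO. The members' median was -0.07, against 0.03 over all genes and 0.09 over abundant ones, and their summed level was 3790.8 and 3670.0 CPM in Mettl3 control and 3437.1 and 3390.2 in Mettl3 cKO. As shares of all counts, without TMM factors, they made up 0.430% and 0.421% in Mettl3 control and 0.371% and 0.365% in Mettl3 cKO.

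The count in Mettl3 cKO also depended on the processing. Without a low-count filter 4 members fell, 3 rose and the median was 0.04. Upper-quartile scaling gave 22 falls and ended both rises, with an adjusted p of 0.838 for Orc2, and total-count scaling gave 20 falls and ended them too (0.569 for Orc2). The share of rises among all calls was 72.3% under TMM scaling, 91.2% without the filter, 31.8% with upper-quartile and 41.9% with total-count scaling, and the median of all genes moved by 0.11, -0.11 and -0.08. The calls of Mcm2, Mcm5, Mcm7 and Pola1 held in all 15 alternatives.

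Leaving out 1 library ended further calls in Mettl3 cKO. Without Mettl3 control replicate 1, 7 members fell, and the adjusted p was 0.307 for Mcm3, 0.128 for Mcm6, 0.34 for Pole, 0.147 for Rpa1, 0.593 for Lig1 and 0.551 for Rrm2. Without Mettl3 control replicate 2, 10 fell, and it was 0.275 for Rfc4, 0.0773 for Pole and 0.0802 for Rrm2. Without Mettl3 cKO replicate 1, 8 fell, and it was 0.0688 for Mcm6, 0.182 for Rfc4, 0.0557 for Pole, 0.0681 for Rpa1 and 0.438 for Rrm2. Without Mettl3 cKO replicate 2, 6 fell, and it was 0.279 for Mcm6, 0.147 for Rfc4, 0.748 for Pole, 0.0601 for Rpa1, 0.849 for Lig1, 0.058 for Rrm1 and 0.327 for Rrm2. Libraries of the Mettl14 line, which share the fit, also counted. Without Mettl14 control replicate 2 or Mettl14 cKO replicate 1, 8 members fell, as Mcm6 (0.0591 and 0.0645), Rfc4 (0.0631 and 0.0605), Pole (0.177 and 0.188), Lig1 (0.0824 and 0.0859) and Rrm2 (0.239 and 0.253) did not pass. Without Mettl14 control replicate 1 or Mettl14 cKO replicate 2, 11 fell, as Pole (0.089 and 0.103) and Rrm2 (0.139 and 0.155) did not.

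The size of the change differed between the knockouts for 23 of 35 members in the test of the difference itself (the change with Mettl14 minus the change with Mettl3), where 33.2% of all tested genes and 61.1% of abundant ones were called. It was lower for 20 (20.5% of all genes, 45.6% of abundant) and higher for 3 (12.7% and 15.5%). The members' median difference was -0.20, against 0.02 over all genes and -0.17 over abundant ones. The count called either way and this median were thus close to those of abundant genes, and neither is particular to the members. The difference was -1.15 ± 0.10 for Cdt1 (SE, edgeR's test, adjusted p = 1.75e-21), -0.70 ± 0.07 for Orc2, -0.48 ± 0.05 for Mcm6 and -0.44 ± 0.04 for Mcm10. These 4 held in all 14 alternatives.

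Within the MCM ring the difference went both ways. It was -0.23 ± 0.04 for Mcm4 and -0.22 ± 0.04 for Mcm3, and 0.22 ± 0.04 for Mcm7 (SE, edgeR's test, adjusted p = 2.49e-06) and 0.11 ± 0.04 for Mcm2 (adjusted p = 0.0291). With total-count scaling Mcm3 (0.07) and Mcm4 (0.06) had the other sign. The call of Mcm2 was lost in each fit that left out 1 library, with adjusted p from 0.0831 without Mettl3 control replicate 2 to 0.42 without Mettl14 cKO replicate 2. A scaling shifts all subunits by the same amount, so the gap between 2 of them does not depend on it. The log2 fold change of Mcm7 minus that of Mcm6 was 0.54 in Mettl14 cKO and -0.16 in Mettl3 cKO under every scaling tried. Without 1 library it ran from 0.52 to 0.55 and from -0.17 to -0.15.

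Under TMM scaling 13 members fell in both knockouts, 15 fell with Mettl14 and did not pass with Mettl3, and 4 (Cdc45, Cdc6, Rfc3 and Rfc5) passed in neither. The share of all genes with each joint pattern was not computed. Singly, 45.5% of abundant genes were called down in Mettl14 cKO and 7.94% in Mettl3 cKO. A fall with Mettl14 without one with Mettl3 is therefore common and not particular to the members. Of the 15, 6 (Mcm10, Gins2, Pcna, Rfc1, Pola2 and Prim2) were called down in Mettl3 cKO with upper-quartile scaling, and 5 of them, all but Prim2, with total-count scaling. Among the 15, the difference passed the test for 11: Cdt1, Orc1, Orc6, Mcm10, Gins1, Gins3, Prim1, Prim2, Pcna, Rfc1 and Rpa2. For the other 4, Gins2, Gins4, Rfc2 and Pola2, it did not (adjusted p = 0.153, 0.168, 0.184 and 0.313). The call of the difference of Pcna was lost without Mettl3 control replicate 2 (0.201), that of Rpa1 without that library (0.0653) or Mettl14 control replicate 2 (0.0772), and that of Pold1 without Mettl14 control replicate 1 (0.112), Mettl14 control replicate 2 (0.0814), Mettl14 cKO replicate 2 (0.452), Mettl3 control replicate 1 (0.0687) or Mettl3 cKO replicate 1 (0.115). The counts turned round with the scaling. Upper-quartile scaling gave 6 higher and 8 lower members, and total-count scaling 12 higher and 4 lower, with 60.6% and 77.5% of all calls higher in place of 38.4%.

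The members differed more between the control groups of the 2 lines than between either knockout and its control, at the median. With TMM scaling, 34 of 35 members were higher in Mettl14 control than in Mettl3 control, and Pold1 was lower; with total-count scaling Rfc5 also had a negative log2 difference (-0.03), 29 were called higher, and Mcm6, Mcm7, Pole and Rfc3 did not pass (adjusted p = 0.57, 0.502, 0.618 and 0.694). Of all tested genes 33.6% were called higher and 34.1% lower, and of abundant genes 63.2% and 23.4%. The members' median difference was 0.91, against -0.09 over all genes and 0.36 over abundant ones, and it was 0.45 with total-count scaling, which moved the median of all genes by -0.45. It was 1.97 ± 0.06 for Cdt1, 1.86 ± 0.04 for Pcna, 1.63 ± 0.05 for Orc6, 1.57 ± 0.06 for Rpa2 and 1.55 ± 0.07 for Gins2 (SE, edgeR's test). The smallest were those of Rfc5 (0.42), Pole (0.47), Mcm6 (0.47) and Mcm7 (0.47). Pold1 was lower by 0.14 ± 0.05 (adjusted p = 0.00559), a call lost without Mettl14 control replicate 1 (0.233), Mettl14 control replicate 2 (0.145), Mettl14 cKO replicate 1 (0.0667), Mettl14 cKO replicate 2 (0.111) or Mettl3 control replicate 1 (0.104).

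The order of the 4 groups was followed member by member in TMM-scaled CPM, and was not counted under another scaling. The TMM factors differed between groups, with the lowest for Mettl14 control replicate 1 (0.834) and the highest for Mettl3 control replicate 2 (1.151). In 31 of 35 members both Mettl14 cKO libraries lay below both Mettl14 control libraries, as in 33.3% of all tested genes and 54.1% of abundant ones. In 33 members, all but Mcm6 and Pold1, both Mettl14 cKO libraries lay above all 4 libraries of the Mettl3 line (31.7% of all, 56.1% of abundant). In 30 they lay between Mettl14 control and Mettl3 control (18.3% and 38.5%). The full order, Mettl14 control above Mettl14 cKO above Mettl3 control above Mettl3 cKO with no overlap, was seen in 17 (4.34% and 9.54%). These 17 were Mcm2, Mcm3, Mcm4, Mcm5, Mcm7, Gins2, Gins4, Rfc4, Pola1, Pola2, Pole, Prim1, Prim2, Rpa1, Lig1, Rrm1 and Rrm2. With total-count scaling Mcm2, Mcm5, Mcm7, Pola2 and Rrm2 had positive log2 fold changes for Mettl14, so the full order cannot hold for them there. Those of the others among the 17 stayed negative. Both Mettl3 control libraries lay below both Mettl14 control libraries in 34 members (39.2% of all, 66.4% of abundant). Cdc6 and Pold1 had both Mettl14 cKO libraries above their controls, as had 34.8% and 32.8% of the background. Both Mettl3 cKO libraries lay below their controls in 20 members (24.2% and 16.8%) and above them in 3, Cdt1, Orc2 and Fen1 (32.5% and 53.7%), and the groups overlapped in 12.

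Marker levels moved in the same order. In Mettl14 cKO, 17 of 20 tested fibroblast markers rose, and 10 of 12 stem cell markers fell. Of all tested genes 18.0% were called up and 22.4% down there, and of abundant ones 25.9% and 45.5%. Pou5f1, which encodes OCT4, fell by 1.22 ± 0.03 and the collagen gene Col1a2 rose by 1.54 ± 0.03 (SE, edgeR's test). In Mettl3 cKO 10 of 20 fibroblast markers rose and 2 fell (7 and 2 with upper-quartile scaling). There 5 of 12 stem cell markers fell and 2 rose. The shares called up and down were 15.1% and 5.78% of all tested genes, and 33.0% and 7.94% of abundant ones. Between the control lines 18 of 20 fibroblast markers were lower and 11 of 12 stem cell markers higher in Mettl14 control. Of all tested genes 34.1% were lower and 33.6% higher, and of abundant ones 23.4% and 63.2%. The part of these marker differences, and of the mitochondrial share, in the results on replication genes was not tested.

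**Figure D5:**
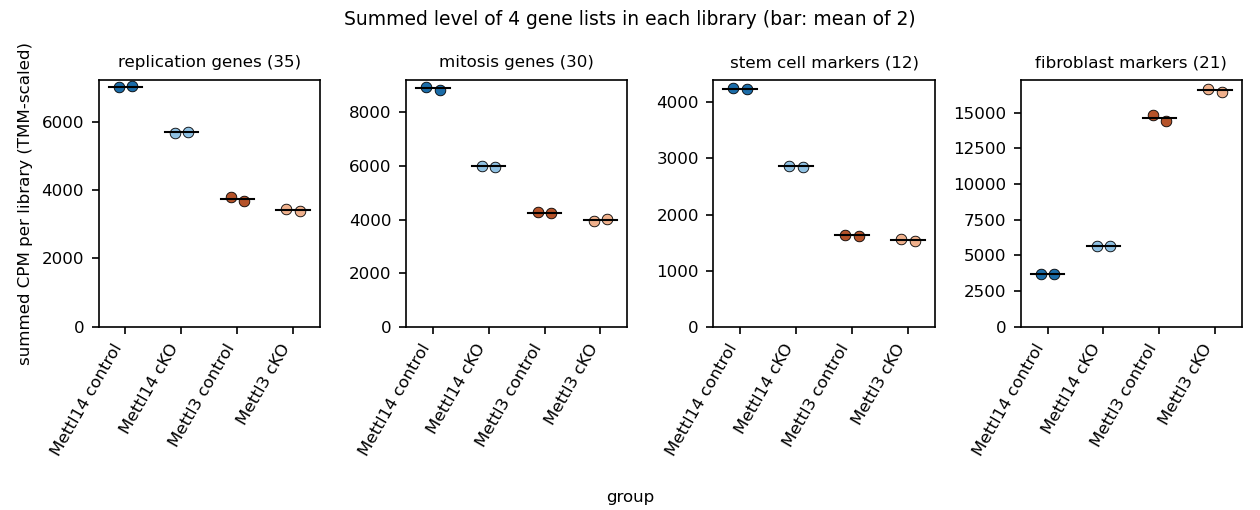
Summed TMM-scaled CPM in each library for the 35 replication genes, 30 mitosis genes, 12 stem cell markers and 21 fibroblast markers, with a bar at the mean of the 2 libraries of a group. The first 3 lists step down from Mettl14 control (7008.1 and 7031.2 CPM for replication genes) to Mettl3 cKO (3437.1 and 3390.2), and the fibroblast markers step up. The size of the steps rests on TMM scaling. As shares of all counts, replication genes made up 0.584% and 0.59% in Mettl14 control and 0.371% and 0.365% in Mettl3 cKO.

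Genes around the machinery were read from 6 lists of other parts of the same process, under TMM scaling. Beside their counts stand the shares of abundant genes called down and up, 45.5% and 25.9% in Mettl14 cKO and 7.94% and 33.0% in Mettl3 cKO. With total-count scaling the falls in Mettl14 cKO were 13, 11, 10, 12, 7 and 23, in the order in which the lists follow. With upper-quartile scaling those in Mettl3 cKO were 9, 14, 10, 6, 5 and 24. Of 34 other replisome and licensing genes, 22 fell and 3 rose in Mettl14 cKO, with a median of -0.31, and in Mettl3 cKO 4 fell and 3 rose (-0.02). Top1, a topoisomerase that relieves the twist ahead of the fork, fell by 0.95 ± 0.03 with Mettl14. Ticrr, which helps CDC45 join the ring, fell by 0.86 ± 0.03 with Mettl14 and 0.21 ± 0.03 with Mettl3, and Clspn, a fork protein, fell by 0.68 ± 0.04 with Mettl14 (SE, edgeR's test). Timeless, a fork protection protein, fell by 0.29 ± 0.04 in Mettl3 cKO. Dbf4, the activating subunit of the CDC7 kinase that fires origins, rose by 0.10 ± 0.03 with Mettl14 and 0.24 ± 0.04 with Mettl3. RLE scaling ended its call with Mettl14 (0.07, adjusted p = 0.0885 in edgeR's test). Cdc7 itself passed the test in neither knockout (-0.03 and 0.06).

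Nucleotide supply genes fell in 14 of 19 cases and rose in 2 in Mettl14 cKO (median -0.40), and fell in 9 and rose in 1 in Mettl3 cKO (-0.12). The members that moved do not all supply nucleotides. Samhd1, which breaks deoxyribonucleotides down, fell by 1.17 ± 0.06 with Mettl14. Ppat and Gart, enzymes of purine synthesis, fell by 0.49 ± 0.03 and 0.40 ± 0.03 there, and with Mettl3 the falls were 0.26 ± 0.03 for Gart, 0.26 ± 0.05 for Dut, which removes dUTP, and 0.21 ± 0.03 for Mthfd1 of the folate cycle (SE, edgeR's test).

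Of 15 genes that rebuild chromatin behind the fork, 12 fell and 1 rose in Mettl14 cKO (median -0.42), and 5 fell and 1 rose in Mettl3 cKO (-0.08). Nasp, a histone chaperone, fell by 0.78 ± 0.02 and 0.36 ± 0.03 with Mettl14 and with Mettl3. Hat1, a histone acetyltransferase, fell by 0.68 ± 0.03 with Mettl14. Chaf1a, the large subunit of the chaperone CAF-1, fell by 0.71 ± 0.04 with Mettl14. Dnmt1, the maintenance DNA methyltransferase, fell by 0.22 ± 0.03 with Mettl3, and Uhrf1, its partner, by 0.21 ± 0.03 (SE, edgeR's test).

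Among 27 regulators of entry into S phase, 17 fell and 6 rose in Mettl14 cKO (median -0.30). In Mettl3 cKO 2 fell and 9 rose (0.10), and upper-quartile scaling gave 6 falls and 3 rises (-0.01). The 9 rises are close to the 33.0% of abundant genes called up in Mettl3 cKO. Ccne1, a cyclin that starts S phase, had 87.4 and 84.2 CPM in the Mettl14 control, 48.4 and 49.1 in Mettl14 cKO, 34.4 and 31.1 in Mettl3 control, and 36.1 and 37.3 in Mettl3 cKO. It fell by 0.81 ± 0.06 with Mettl14 (SE, edgeR's test, adjusted p = 7.82e-28). Cdc25a, the phosphatase that activates CDK2, fell by 0.80 ± 0.05. Cdkn1a, the CDK inhibitor p21, had 57.2 and 57.3 CPM in the Mettl14 control, 78.4 and 82.2 in Mettl14 cKO, 86.5 and 91.0 in Mettl3 control, and 107.5 and 108.3 in Mettl3 cKO. Its order of groups in TMM-scaled CPM, with no overlap, was the reverse of that seen in 17 of the 35 members (4.34% of all tested genes, 9.54% of abundant). The share of genes with the reverse order was not computed. Cdkn1a rose by 0.49 ± 0.05 and 0.28 ± 0.04. Ccnd2, a D-type cyclin, rose by 0.68 ± 0.05 and 0.35 ± 0.04. E2f1 rose by 0.22 ± 0.08 with Mettl14 (adjusted p = 0.034) and by 0.40 ± 0.08 with Mettl3 (adjusted p = 4.15e-05). RLE scaling ended its call with Mettl14 (0.19, adjusted p = 0.0728).

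The replication checkpoint, which slows S phase when forks stall, had 12 of 15 genes down and 1 up in Mettl14 cKO (median -0.32) and 3 down and 1 up in Mettl3 cKO (0.05, and -0.07 with upper-quartile scaling). Etaa1, an activator of the kinase ATR, fell by 0.52 ± 0.04 with Mettl14 and rose by 0.41 ± 0.05 with Mettl3. Fanci fell by 0.52 ± 0.04 and 0.30 ± 0.04, and its partner Fancd2 by 0.47 ± 0.04 with Mettl14 (SE, edgeR's test).

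Mitosis genes fell in 29 of 30 cases in Mettl14 cKO, with a median of -0.49. In Mettl3 cKO 15 fell and 1 rose (-0.12). Incenp, of the chromosomal passenger complex, fell by 1.52 ± 0.04 with Mettl14, Mki67, the Ki-67 antigen, by 0.95 ± 0.03, and Cenpf, a kinetochore protein, by 0.83 ± 0.02. Mki67 rose by 0.11 ± 0.03 with Mettl3, a call that upper-quartile (adjusted p = 0.919) and total-count scaling (0.572) ended, while Top2a, the topoisomerase that untangles sister DNA, fell by 0.28 ± 0.02 (SE, edgeR's test). Whether any of these lists differs from the replication genes was not tested.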

How the data were processed

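The authors deposited, for each sample, unnormalized counts of reads over genes. Per the labels' protocols, RNA of the nuclear fraction was depleted of ribosomal RNA and made into stranded libraries. Per the submitters' processing notes, the tools were HTSeq, HISAT2 2.1.0, Trimmomatic 0.38 and CASAVA, and the genome build was mm10. Neither source states the annotation release or strand setting of the counting, so reads in exons that overlap a gene on the other strand are uncertain.

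Identifiers were matched without version to GENCODE M21 (54409 of 54446). The 21782 genes that passed filterByExpr (minimum count 10) entered 1 fit of all 8 libraries, with edgeR 4.0.16 in R 4.3.3, TMM scaling, robust glmQLFit and glmQLFTest, 1 mean for each of 4 groups, and 4 residual degrees of freedom. The same fit was also run on simulated counts in which few genes changed, which does not test the choice of scaling. Called means a Benjamini-Hochberg adjusted p under 0.05 over all tested genes. CPM use TMM-scaled library sizes. Library totals ran from 17235889 to 20086128 counts, which gave the members 232 to 9843 counts each. Replicates of a group differed by more than sampling noise (chi-square per degree of freedom 1.43 to 2.08) and were counted as 2.

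The 35 members, their roles and the 8 other lists (other replisome and licensing, nucleotide supply, replication-coupled chromatin, S-phase entry, replication checkpoint and mitosis genes, and markers of stem cells and fibroblasts) were chosen with earlier results of these data known, so no list is independent evidence. By rule the text names all members, Mettl3 and Mettl14, up to 3 called genes of each list with the smallest p in each knockout, and Gmnn, Cdc7, Dbf4, E2f1, Ccne1, Ccna2, Cdkn1a, Mki67 and Top2a where a result turns on them. Alternatives were RLE, upper-quartile and total-count scaling (the last chosen after seeing the data), DESeq2 1.42.0, no low-count filter, the 4 libraries of a line alone, a replicate block, and each library left out.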

Additional observations from a re-analysis of the deposited data

Results flagged for a closer look

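The change with Mettl14 differed from the change with Mettl3 for 23 of the 35 members in edgeR's test of the difference (adjusted p under 0.05 over all tested genes, TMM scaling), where 33.2% of all tested genes and 61.1% of those as abundant as the members (an average log2 CPM of 4 or more) were called. As the log2 change with Mettl14 minus that with Mettl3, the differences below 0 were those of Cdt1 (-1.15), Orc2 (-0.70), Gins3 (-0.56), Gins1 (-0.535), Mcm6 (-0.48), Mcm10 (-0.44), Rpa2 (-0.37), Lig1 (-0.35), Prim1 (-0.34), Prim2 (-0.30), Orc6 (-0.295), Rfc1 (-0.29), Fen1 (-0.29), Orc1 (-0.25), Mcm4 (-0.23), Mcm3 (-0.22), Pola1 (-0.21), Pcna (-0.20), Pole (-0.15) and Rpa1 (-0.15). Those above 0 were of Mcm7 (0.22), Pold1 (0.205) and Mcm2 (0.11). Their adjusted p ran from 1.75e-21 for Cdt1 to 0.0305 for Rpa1. Under total-count scaling 12 members were higher and 4 lower in place of 3 and 20. The count of 23 is close to the share of abundant genes called, so it is not particular to the replication genes.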

How the results depend on the processing

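Counts of called members moved with scaling. In Mettl14 cKO, where 1 member rose and 29 fell, total-count scaling gave 7 and 17 (all genes 6775 up and 2667 down), and DESeq2 gave 0 rises (2425 over all genes). Under total-count scaling the sign turned for 10 of 35 members, Rfc3 and Rfc5, called in neither fit, and Mcm2 (0.026), Mcm5 (0.065), Mcm7 (0.135), Cdc45 (0.171), Rfc2 (0.013), Pola2 (0.03), Fen1 (0.116) and Rrm2 (0.10). In Mettl3 cKO, with 2 rises and 13 falls, upper-quartile scaling gave 0 and 22 (all genes 1293 and 2771), total-count scaling 0 and 20 (1657 and 2299), and RLE scaling, DESeq2 and the 4 libraries of the line alone 1 rise each (DESeq2 1308 up and 454 down over all genes). Without a low-count filter 4 fell (5814 up and 559 down), and the sign turned for the members' median (0.038) and 17 members, 2 of them called under TMM scaling, Pole (0.004) and Rrm2 (0.006).

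For the difference between knockouts, with 3 members higher and 20 lower, upper-quartile scaling gave 6 and 8 (all genes 4287 and 2788) and turned 9 members, of which Pole (0.006), Rpa1 (0.007) and Rrm2 (0.155) were called in at least 1 of the fits. Total-count scaling gave 12 and 4 (6268 and 1822) and turned the median (0.086) and 18 members, of which 13 were called in at least 1 of the fits: Mcm3 (0.07), Mcm4 (0.059), Cdc45 (0.239), Orc1 (0.036), Pcna (0.087), Rfc5 (0.265), Pola1 (0.077), Pola2 (0.197), Pole (0.138), Rpa1 (0.139), Fen1 (0.002), Rrm1 (0.224) and Rrm2 (0.287). DESeq2 gave 1 higher member (1256 over all genes) and the fit without a filter 0. Between the controls, with 34 higher (29 with total-count scaling) and 1 lower, DESeq2 and the fit without a filter gave 0 lower, and total-count scaling moved all genes to 4019 and 12028 and turned Rfc5 (-0.028). The cause of these moves was not tested.

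Without 1 library at a time, members called up and down ran from 0 to 1 and 26 to 29 in Mettl14 cKO, 1 to 2 and 6 to 11 in Mettl3 cKO, 1 to 2 and 18 to 21 for the difference, and 34 to 34 and 0 to 1 between controls. All genes called down in Mettl3 cKO ran from 599 to 1070, and genes higher in the difference from 1987 to 2380. Such fits have fewer samples, and the lone sample of a group is assumed to vary like the other groups. With the replicate block the members' counts were 1 and 29, 2 and 13, 3 and 20, and 34 and 1, the same as without it. The correlation of same-numbered samples' deviations from their group means ran from -0.03 to 0.109. Sampling noise in such deviations can hide a shared culture or preparation, so these values cannot tell whether same-numbered samples share one. With 2 samples a group, changes near 0.1 on the log2 scale rest on single libraries.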
